A study of Mus musculus with 2 samples.

Results

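Genes for nucleolar proteins, ribosome assembly factors and the RNA exosome were followed in RNA that co-precipitated with nucleolin from nuclei of LPS-stimulated macrophages. The members were taken by gene symbol: the Exosc, Nop, Utp, Rrp and Nol genes with a number in their name, Polr1a to Polr1e, Imp3 and Imp4, and 21 further genes named singly. They came to 71 of 23924 gene symbols in the deposited table, and the rule used no measured value. The nucleolin IP came from RAW 264.7 macrophages, a mouse cell line, that were mRrp6-depleted and given 80 ng/ml LPS during 12 h. The IgG IP, made with rabbit IgG as the control for unspecific recovery, came from mRrp6-depleted cells under the same stimulation. Both groups therefore carry the depletion, no undepleted or unstimulated cells were analysed here, and how the depletion was made is not given in the labels. RNA was eluted from nuclear extracts after removal of the cytosolic fraction, and each antibody gave 1 library. No difference below has a replicate check, and no p-value is given.

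Ribosomes are built in the nucleolus. RNA polymerase I copies the ribosomal DNA into a long precursor, small nucleolar ribonucleoproteins guide its methylation and pseudouridylation, and successive sets of assembly factors cleave and fold it into the small and the large subunit. The RNA exosome, a ring of core subunits with attached nucleases, trims precursor ends and degrades the excised spacers; its nuclear nuclease Rrp6 is encoded by Exosc10, the gene product depleted in both groups. The values here describe mRNAs of these factors in a nuclear precipitate, not the proteins.

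The mRNAs of this machinery were listed more often in the nucleolin IP. At 0.1 FPKM or more, 21 of the 71 members were listed in the nucleolin IP and 8 in the IgG IP, 3 of them in both, and 45 were in neither. Among all gene symbols 7.23% were listed in the nucleolin IP and 8.4% in the IgG IP. The members made up 1.21% of the genes listed in the nucleolin IP and 0.398% of those listed in the IgG IP. Of the 26 members that reached 1 FPKM in at least 1 library, 18 had a nucleolin IP level 2-fold or more above the IgG IP and 6 a level 2-fold or more below it, on the scale log2((nucleolin FPKM + 1) / (IgG FPKM + 1)). Among the 3194 genes compared in the same way, 37.8% were higher and 56.7% lower. All 18 higher members (69.2% of those compared) were listed at 0 in the IgG IP, and 5 of the 6 lower ones at 0 in the nucleolin IP. On this scale a gene that reached 1 FPKM in 1 library and was at 0 in the other is 2-fold apart by construction. The calls over a 0 therefore restate where a gene was listed. Of all genes compared, 37.1% were listed in the nucleolin IP only and 46% in the IgG IP only. The median log2 ratio of the 26 members was 2.82, against -1.27 over all genes compared. Over the 3 members listed in both libraries the median was -0.31, against -1.19 over all genes listed in both. It turned to 0.96 after centring on all genes, against 0.08 for all genes in both, and to 1.01 with 1 read set equal, against 0.0079. The median of the 26 ran from 1.15 to 5.95 between pseudocounts of 5 and 0.1, since most ratios stand over a 0. The summed level of the members was 274 FPKM in the nucleolin IP and 219 FPKM in the IgG IP. All genes summed to 361896 FPKM in the nucleolin IP and 190321 FPKM in the IgG IP, so the members were a smaller share of the nucleolin sum. The highest single gene held 232751 FPKM in the nucleolin IP and 70761 FPKM in the IgG IP.

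**Figure D1:**
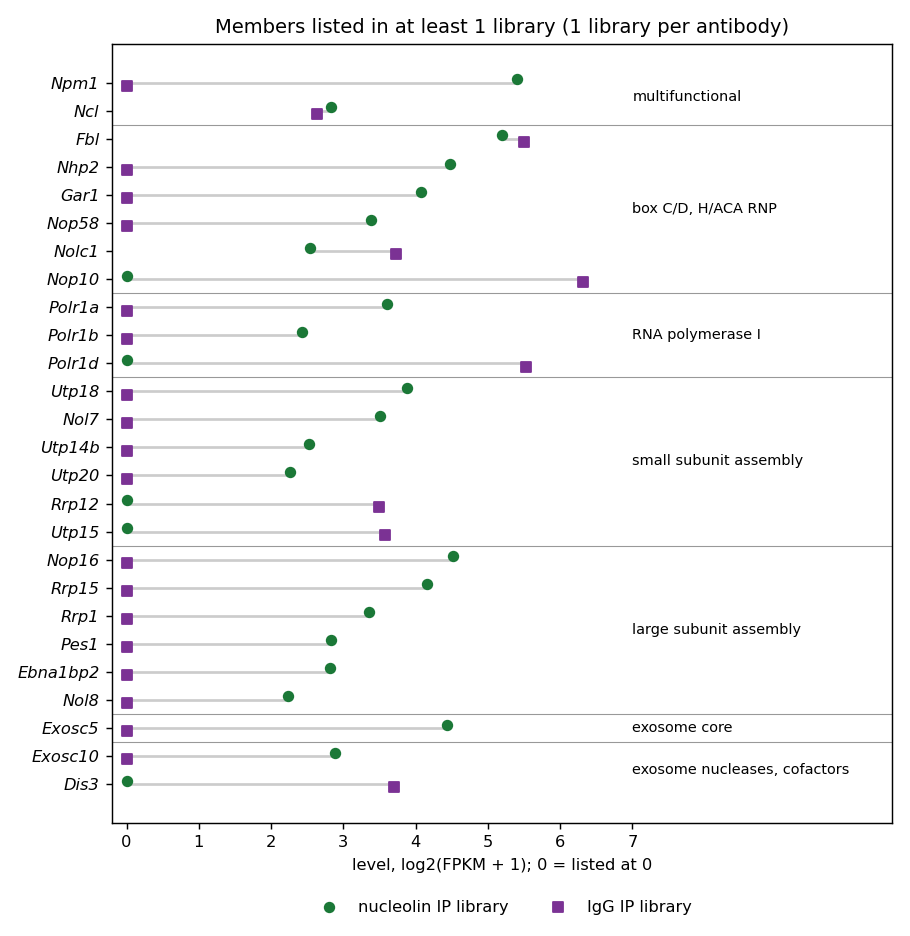
Level of each of the 26 members listed in at least 1 library, as log2(FPKM + 1), with circles for the nucleolin IP and squares for the IgG IP (1 library each), grouped by role. For 18 members the square lies at 0 and for 5 the circle does, while Ncl, Fbl and Nolc1 have a value in both libraries.

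Markers of other cell types differed between the libraries. Of 11 macrophage markers in the table, 9 were listed in the nucleolin IP and 6 in the IgG IP. Their summed level was 550 FPKM in the nucleolin IP and 694 FPKM in the IgG IP. Lyz2 (200 FPKM), Csf1r (22.6 FPKM) and Itgam (7.39 FPKM) were listed in the nucleolin IP and at 0 in the IgG IP. Cd14, Cd68, Tyrobp, Ctss, Spi1 and Mpeg1 were listed in both, with a higher FPKM in the IgG IP. By the depth fit given below, equal reads have a nucleolin FPKM of 0.393 times the IgG FPKM. A higher IgG FPKM therefore need not mean more IgG reads. Cd14 was at 207 FPKM in the nucleolin IP and 319 FPKM in the IgG IP, and Cd68 at 16.2 and 138 FPKM. None of 7 epithelial markers and none of 10 gastric and pancreatic secretory markers were listed in the nucleolin IP, whereas 5 of the epithelial and all 10 of the secretory ones were listed in the IgG IP. The secretory markers summed to 20857 FPKM there. Of 4 fibroblast markers, 2 were listed in the IgG IP only, at 18.8 FPKM or less. The T cell list had Lck at 8.92 FPKM in the nucleolin IP as its sole listed marker, and no B cell or erythroid marker was listed in either library. The labels name a macrophage line alone for both libraries, so the gastric, pancreatic and epithelial transcripts of the IgG IP do not match the labelled cells, and their origin and their part in the members' values were not tested. For transcripts of the labelled cells, the parts of antibody recovery, of these other transcripts and of depth in a difference between the libraries cannot be told apart.

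The depth behind the values was recovered from genes without introns, whose transcript length equals their gene span. For 6 such genes listed in the IgG IP (Hist1h1b, Hist1h1d, Capns2, Ier2, Tspyl1 and Junb), the product of FPKM and span less 203 bases fell on whole multiples of 1 step, with deviations of at most 0.0314%. Junb stood at 5 steps and the other genes at 1. The offset of 203 bases and the step were both fitted to these genes. Taken as 1 read, the step was worth 42.2 FPKM on 1 kb of such length in the IgG IP. The nucleolin IP was tied to this through 246 genes that had 1 row, were listed on both sides and lay under 30 FPKM in the nucleolin IP and 60 FPKM in the IgG IP. In 157 of them the nucleolin FPKM was within 0.05 (log2) of 0.393 times the IgG FPKM. Taken as the ratio of equal reads, it made 1 read on 1 kb worth 16.6 FPKM in the nucleolin IP. At that worth Cebpb and Junb, both without introns, came to 2.02 and 1.01 reads there. These steps correspond to 60194 fragments in the nucleolin IP and 23679 in the IgG IP, if the values were scaled to all mapped fragments. Under these readings the nucleolin IP was 2.54 times deeper. The members listed in it were 2.62 times as many as in the IgG IP, and over all genes the same ratio of listed genes was 0.861. The part of depth in these numbers of listed genes was not tested.

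**Figure D2:**
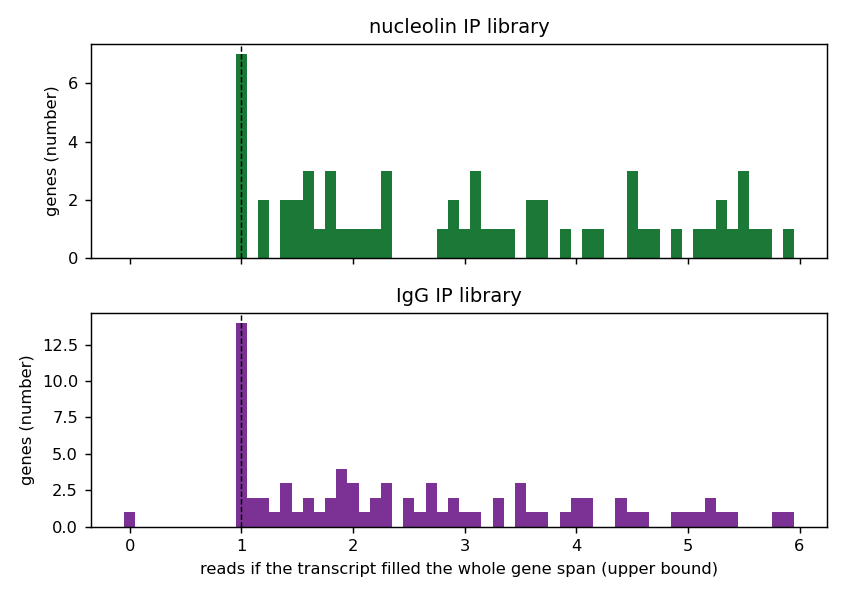
Histograms of FPKM times gene span less 203 bases, divided by the worth of 1 read, for protein-coding genes with 1 transcript row and a span under 3500 bases, histones left out (99 genes in the nucleolin IP above, 126 in the IgG IP below; values under 6 are drawn). The value is the largest read number the gene could hold; both histograms start at the dashed line of 1 read, where 7 nucleolin and 14 IgG genes lie between 0.95 and 1.1, and 1 IgG gene, Rpl26, lies far below it.

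Values below 1 read did occur among histone genes. Among 14 histone genes with 1 row and a span under 1000 bases in the IgG IP, 12 were below 0.95 read, and Hist1h3a and Hist1h3c each stood at 0.125 read. Whether reads shared between similar loci gave these fractions was not tested. Member values may also hold fractions of reads.

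Nucleophosmin and nucleolin themselves were both present. Npm1, a nucleolar histone chaperone with roles in ribosome export, was at 41.5 FPKM in the nucleolin IP and 0 in the IgG IP, the highest level of any member in the nucleolin IP. Ncl, which encodes the precipitated protein, was at 6.14 FPKM in the nucleolin IP and 5.25 FPKM in the IgG IP. Ncl lies on chromosome 1 from 86344719 to 86359455 and Npm1 on chromosome 11 from 33152498 to 33164142 (mm10). Among pairs of at most 8 whole reads, the smallest within 0.1 (log2) of the ratio of Ncl was 3 nucleolin reads and 1 IgG read, off by -0.01. They would need a transcript of 8.32 kb by the nucleolin value and 8.25 kb by the IgG value. With 1 nucleolin read the length would be 2.91 kb, and the IgG value would then be 0.336 of a read. Which of these holds was not tested, since transcript lengths are not in the table; in both cases the libraries held only a few reads of Ncl.

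Of the 8 genes for small nucleolar ribonucleoprotein components, 5 (62.5%, beside 7.23% of all symbols) were listed in the nucleolin IP. In the IgG IP 3 (37.5%, beside 8.4%) were listed, 2 of them in both libraries, and 2 genes were in neither. Fbl, the methyltransferase of box C/D particles, was at 35.5 FPKM in the nucleolin IP and 44.2 FPKM in the IgG IP, a ratio of 0.804. Read numbers were matched to such ratios within 0.1 on the log2 scale, with at most 8 reads in all. The smallest match for Fbl was 2 nucleolin reads to 1 IgG read, off by 0.03. These reads imply transcript lengths of 1.14 kb and 1.16 kb, which lie close together because the pair was chosen to match the ratio. Larger pairs in the same proportion would match as well, and the gene span allows at most 21 nucleolin and 10 IgG reads. At 2 and 1 reads, counting error alone (exact Clopper-Pearson, 95%) spans FPKM ratios from 0.0410 to 46.4. Nop58, a core scaffold of the same box C/D particles, was at 9.43 FPKM in the nucleolin IP and 0 in the IgG IP, and its partner Nop56 was at 0 in both. Nolc1, a chaperone of both particle classes, was at 4.79 FPKM in the nucleolin IP and 12.2 FPKM in the IgG IP. Their ratio is that of equal reads, and at 1 read each the interval ran from 0.00501 to 30.9.

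The proteins of the box H/ACA core, which carries out pseudouridylation, form 1 particle, and their mRNAs were listed in different libraries. Nhp2, an RNA-binding core protein, was at 21.3 FPKM in the nucleolin IP and 0 in the IgG IP. Gar1, which contacts the enzyme, was at 15.8 FPKM in the nucleolin IP and 0 in the IgG IP. Nop10, the smallest of these proteins, was at 0 in the nucleolin IP and at 78.9 FPKM in the IgG IP, the highest level of any member. Dkc1, the pseudouridine synthase, was at 0 in both. The Nop10 gene spans only 973 bases (chromosome 2, 112261926 to 112262898), and at the worth of 1 IgG read this span has room for 1 read and not for 2. The highest FPKM among the members was thus at most 1 read on a short transcript, and with 0 against 1 read the 95% interval of the FPKM ratio ran from 0 to 15.3. For Nhp2 (chromosome 11, 51619773 to 51623718) the span of 3.95 kb allows at most 4 nucleolin reads, and for Gar1 (chromosome 3, 129824912 to 129831407) at most 6.

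The promoters of these genes are shown because Nhp2, Gar1 and Nop10 encode partners of 1 particle that were listed, on few reads, in opposite libraries. Exosc10 was added because it encodes the depleted nuclease. Each window runs from 250 bases before to 50 bases after the annotated start (RefSeq, GRCm38.p6), on the gene's strand. Capitals mark CCGGAAG, the core bound by ETS factors, TCTCGCG, an arm of a palindrome found in promoters of many housekeeping genes (matches on both strands overlap where the palindrome is complete), CACGTG, the E-box bound by MYC, or TATAAA, the TATA box, each searched on both strands. Nhp2 is at chr11:51619523-51619822 on the plus strand, Gar1 at chr3:129831347-129831646 on the minus strand, Nop10 at chr2:112261676-112261975 on the plus strand and the upstream start of Exosc10 at chr4:148558169-148558468 on the plus strand.
Nhp2: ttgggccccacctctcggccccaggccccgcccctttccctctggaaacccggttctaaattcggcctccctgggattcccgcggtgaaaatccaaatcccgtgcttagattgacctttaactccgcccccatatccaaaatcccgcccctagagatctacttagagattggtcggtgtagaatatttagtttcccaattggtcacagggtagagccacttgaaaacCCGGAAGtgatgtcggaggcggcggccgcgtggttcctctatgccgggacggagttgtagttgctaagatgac
Gar1: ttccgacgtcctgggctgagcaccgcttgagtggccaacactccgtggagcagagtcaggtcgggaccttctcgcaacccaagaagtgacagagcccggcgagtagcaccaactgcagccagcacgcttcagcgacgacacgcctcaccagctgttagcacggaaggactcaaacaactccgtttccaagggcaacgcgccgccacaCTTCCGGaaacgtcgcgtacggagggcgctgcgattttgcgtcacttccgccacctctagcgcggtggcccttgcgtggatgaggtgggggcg
Nop10: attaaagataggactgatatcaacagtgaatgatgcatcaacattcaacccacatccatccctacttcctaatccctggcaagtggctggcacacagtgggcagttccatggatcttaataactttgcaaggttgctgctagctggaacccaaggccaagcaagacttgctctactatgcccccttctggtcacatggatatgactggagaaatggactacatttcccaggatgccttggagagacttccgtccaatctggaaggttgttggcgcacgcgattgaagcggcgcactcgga
Exosc10: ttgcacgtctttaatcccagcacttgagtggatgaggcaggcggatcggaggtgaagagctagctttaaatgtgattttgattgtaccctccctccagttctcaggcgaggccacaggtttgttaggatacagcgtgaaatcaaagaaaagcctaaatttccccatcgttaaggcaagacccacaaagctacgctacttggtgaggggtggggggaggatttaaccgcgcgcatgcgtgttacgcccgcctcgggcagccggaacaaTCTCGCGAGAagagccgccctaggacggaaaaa
Nhp2 and Gar1 each had 1 ETS core within 50 bases of the start, the upstream start of Exosc10 had the complete palindrome just after it and its second start 2 ETS cores, and the Nop10 window held none of the 4 motifs. Of the 71 members 59 had a promoter entry, and 20 of these (33.9%) held the ETS core, against 12.9% of 17492 protein-coding genes with an entry. The E-box was in 10 members (16.9%), against 8.91% of the coding genes. The palindrome arm was in 8 (13.6%), against 3.93%. The TATA box was in 5 (8.47%), against 14.8%. Among the 23 members listed in either library that had an entry, 9 (39.1%) held the ETS core. The core was also in Rrp15, Utp18, Nol7 and Ebna1bp2, listed in the nucleolin IP only. Nolc1, listed in both, and Dis3, listed in the IgG IP only, held it too. It was absent from Nop16, Polr1a, Polr1b, Rrp1, Nol8, Pes1, Nop58, Exosc5, Utp14b and Utp20, listed in the nucleolin IP only. It was also absent from Ncl, listed in both, and from Nop10, Polr1d and Utp15, listed in the IgG IP only. Whether a motif goes with the library was not tested. A match is a stretch of letters and was not tested as a binding site.

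RNA polymerase I genes stood in both libraries. Polr1a, which encodes the largest catalytic subunit, was at 11.2 FPKM in the nucleolin IP and 0 in the IgG IP. Polr1b, the second catalytic subunit, was at 4.36 FPKM in the nucleolin IP and 0 in the IgG IP. Polr1d, a small subunit that RNA polymerase III also uses, was at 0 in the nucleolin IP and at 45.2 FPKM in the IgG IP. The group had 2 of 7 genes listed in the nucleolin IP (28.6%, beside 7.23% of all symbols) and 1 of 7 in the IgG IP (14.3%, beside 8.4%). Polr1c, which RNA polymerase III uses as well, Polr1e, the initiation factor Rrn3 and the ribosomal DNA binding factor Ubtf were at 0 in both.

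Of 16 large subunit assembly factors, 6 (37.5%, beside 7.23% of all symbols) were listed in the nucleolin IP and 0 in the IgG IP (beside 8.4%). Of 45 other large subunit factors outside the rule, 8 (17.8%) were listed in the nucleolin IP and 6 (13.3%) in the IgG IP, beside the same shares of all symbols. Nop16 was the highest at 21.9 FPKM, followed by Rrp15 at 16.8 FPKM and Rrp1 at 9.26 FPKM, each 0 in the IgG IP. Pes1, a subunit of the PeBoW complex, which large subunit maturation needs, was at 6.13 FPKM in the nucleolin IP and 0 in the IgG IP. Its partners Bop1 and Wdr12 were at 0 in both libraries. Ebna1bp2 was at 6.02 FPKM and Nol8 at 3.72 FPKM in the nucleolin IP, and both at 0 in the IgG IP. The other 10 genes of the group, among them the helicase gene Ddx21 and the methyltransferase gene Nop2, were at 0 in both.

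Of 22 small subunit assembly factors, 4 (18.2%) were listed in the nucleolin IP and 2 (9.09%) in the IgG IP, the second share near the 8.4% of all symbols. In the nucleolin IP Utp18 was at 13.8 FPKM, Nol7 at 10.4 FPKM, Utp14b at 4.74 FPKM and Utp20 at 3.82 FPKM, all at 0 in the IgG IP. Utp18 and Utp20 encode parts of the processome that assembles on the growing precursor. Utp15, a further processome gene, was at 0 in the nucleolin IP and at 10.9 FPKM in the IgG IP, and Rrp12, a factor in export of pre-ribosomes, was at 0 in the nucleolin IP and at 10.3 FPKM in the IgG IP. Utp14b overlaps Acsl3, which was listed at 0.00833 FPKM in the nucleolin IP and 0 in the IgG IP. Utp14b is a retrogene copy of Utp14a, known for its role in mouse spermatogenesis. Every other gene of the table that overlaps a listed member in the reference annotation was at 0 in both libraries, the intronic snoRNA genes of Ncl and Nop58 among them.

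Of the 9 exosome core subunit genes 1 was listed in the nucleolin IP (11.1%, beside 7.23% of all symbols) and 0 in the IgG IP (beside 8.4%). It was Exosc5, a ring subunit, at 20.6 FPKM in the nucleolin IP and 0 in the IgG IP. Exosc10, the nuclease depleted in both groups, was at 6.42 FPKM in the nucleolin IP and 0 in the IgG IP, and 1 nucleolin read would give this level on a transcript of 2.79 kb. Dis3, the other nuclease of the nuclear exosome, was at 0 in the nucleolin IP and at 12.0 FPKM in the IgG IP. The cofactor genes C1d, Mphosph6 and Skiv2l2, the last encoding the helicase MTR4, were at 0 in both. A value of 0 leaves room for sizeable levels here. For Exosc6, whose gene spans 1326 bases, 3 reads would already amount to at least 44.4 FPKM in the nucleolin IP and 113 FPKM in the IgG IP, so that levels up to these could go unseen. For Imp3, of the small subunit processome, the same limits were at least 71.6 FPKM in the nucleolin IP and 182 FPKM in the IgG IP. Nol3 and Nol4, which carry a nucleolar name but are not known for ribosome assembly, were at 0 in both.

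**Figure D3:**
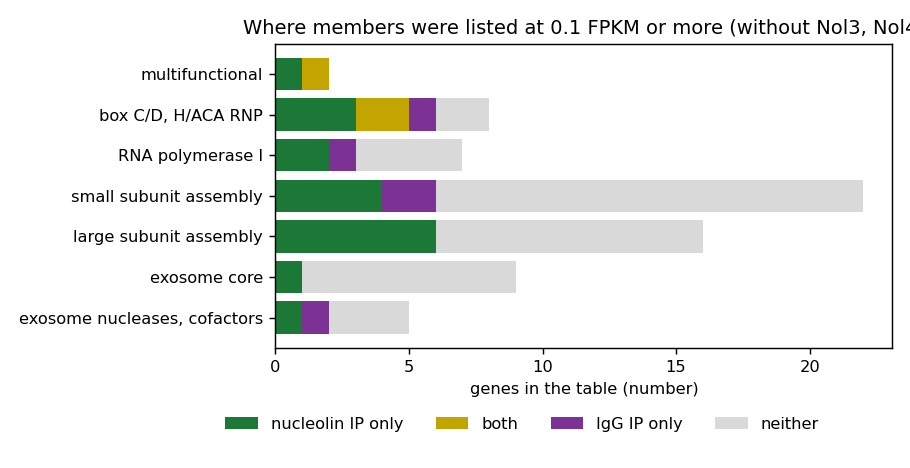
Number of genes per role that were listed at 0.1 FPKM or more in the nucleolin IP only, in both libraries, in the IgG IP only or in neither (Nol3 and Nol4 are left out). Large subunit assembly factors have 6 genes on the nucleolin side and 0 on the IgG side, and 45 of all 71 members were in neither library.

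For most members, being listed in 1 library alone lay within counting error. A gene at equal FPKM in both libraries would have 0.393 IgG reads for each nucleolin read. For a gene at 0 in the IgG IP, at least 12 nucleolin reads are needed before the exact 95% interval of the FPKM ratio lies above 1. For 12 of the 18 members listed in the nucleolin IP only, 12 reads would need a transcript longer than the whole gene. The remaining 6 would need transcripts from 5.01 kb (Npm1) to 52.4 kb (Utp20). A difference was therefore not detectable at this depth for the first 12, and for the 6 others it would rest on transcript lengths that the table does not give. For a member at 0 in the IgG IP with 1 nucleolin read, a floor of 3 IgG reads stands at 7.63 times its nucleolin FPKM. No fold is therefore given for such members singly. The 2-fold counts and medians over the members rest on the 1 FPKM added to each value and do not measure a fold. For a member at 0 in the nucleolin IP, 3 IgG reads would bring the interval below a ratio of 1. Nop10 cannot hold them, and Polr1d, Dis3, Utp15 and Rrp12 would need transcripts of 3.01, 10.8, 11.8 and 12.6 kb.

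**Figure D4:**
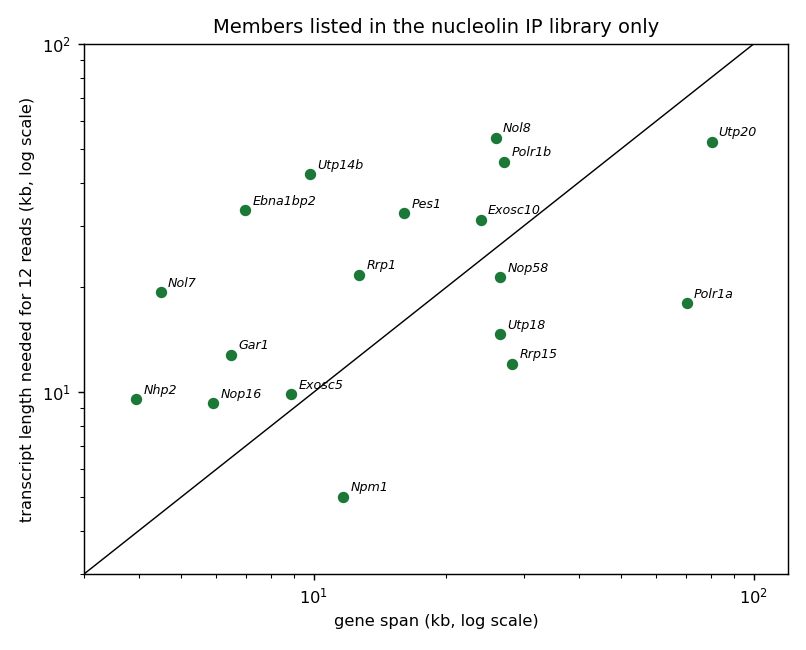
Transcript length that 12 reads would require at the deposited FPKM (vertical axis, kb) against the gene span (horizontal axis, kb), both on log scales, for the 18 members listed in the nucleolin IP only; the line marks equality. The 12 members above the line could not hold 12 reads, and Npm1 has the shortest required length at 5.01 kb.

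Other genes of the same pathway, outside the rule, were also listed on both sides. Of 125 further assembly, RNA polymerase I, exosome cofactor and RNase MRP protein genes, 123 were in the table and 30 reached 1 FPKM. Of these, 16 (53.3%, beside 37.8% of all genes compared) were higher by 2-fold or more in the nucleolin IP and 12 (40.0%, beside 56.7%) lower. Their median log2 ratio was 1.95, against 2.82 for the members and -1.27 for all genes compared, and the difference between the lists was not tested. At a minimum of 10 FPKM it turned to -2.43, against 3.56 for the members and -3.70 for all genes. In all 20 (16.3%) were listed in the nucleolin IP and 14 (11.4%) in the IgG IP, 3 of them in both, beside 7.23% and 8.4% of all symbols. Ngdn (17.0 FPKM), Tcof1 (15.3 FPKM), Lyar (12.5 FPKM) and Ddx47 (10.7 FPKM) had the highest ratios, all at 0 in the IgG IP. Tcof1 encodes treacle, a cofactor of ribosomal DNA transcription, and Ddx47 a helicase of the small subunit pathway. Taf1d, Las1l, Eif6 and Pak1ip1 had the lowest ratios, at 0 in the nucleolin IP and at 44.7, 35.1, 32.7 and 27.3 FPKM in the IgG IP. Taf1d belongs to the RNA polymerase I selectivity factor, Las1l is a nuclease that cuts the second internal spacer, and Eif6 keeps immature large subunits from joining. None of the 10 RNase MRP and RNase P protein genes was listed in either library.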

How the data were processed

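The table deposited by the authors gives FPKM (fragments scaled by transcript length and by mapped fragments) for 33529 transcript rows in 2 libraries, per the file headers. The genome build was mm10, and FastQC 0.10.0 and Trimmomatic 0.32 were run, per the submitters' processing notes. The aligner and the quantification tool are not given in the sources. Strand use is not given either. The column named NCL was assigned to the sample with the nucleoplasmic title, which the design text ties to the anti-nucleolin antibody. Rows were summed per symbol (56 rows without a symbol were left out, 0.0794% of the summed nucleolin and 0.0364% of the summed IgG FPKM). Genes at 1 FPKM or more in at least 1 library were compared after adding 1 to each value. This draws the ratios of low genes listed in both libraries towards equal levels. A ratio over a 0 depends on the added 1. Every member at 1 FPKM or more is named, with Exosc10 and Ncl, and of the further pathway genes the 4 highest and 4 lowest ratios. The members and lists were chosen with earlier results of these data known. The worth of 1 read was fitted on genes without introns chosen after their values were seen, with gene spans and promoters from RefSeq tables of GRCm38.p6, the assembly behind mm10, which held the gene identifiers of all 71 members. For symbols with several rows the summed FPKM was treated as 1 transcript. Depth was 60194 fragments in the nucleolin and 23679 in the IgG library by this fit, and intervals and floors cover counting error only. Reads of copies and of overlapping genes cannot be assigned with certainty. Tools were scipy 1.17.1, numpy 2.4.6 and pandas 2.3.3 under Python 3.11.15. The fit of the worth of 1 read was tested on simulated shallow libraries with known transcript lengths. The 2-fold calls were tested on simulated deep libraries without values of 0, unlike the libraries here. Other pseudocounts, filters, row choices and scalings were tried.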

Additional observations from a re-analysis of the deposited data

How the results depend on the processing

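With 1 library per group the results have no measure of spread, and medians were counted as moved at over 1.5-fold. The number of members higher in the nucleolin library stayed between 14 and 20, against 18 as reported, and the number lower was 5 or 6. This held under both pseudocounts, no filter, the highest row per symbol and both scalings. Most of these calls follow from a 0 in 1 library, so their steadiness restates where members were listed. At a minimum of 10 FPKM, 16 members were compared and 9 were higher, with a median log2 ratio of 3.56; that floor drops genes at 1 nucleolin read more readily than genes at 1 IgG read. The members' median was 5.95 with a pseudocount of 0.1, 1.15 with 5, 4.09 after centring on all genes and 4.04 with 1 read set equal. Over the 3 members in both libraries the median of -0.31 turned to 0.96 after centring and to 1.01 with 1 read set equal. Centring adds the same amount to every ratio, and setting 1 read equal raises the ratio of every gene with a nucleolin value. Nolc1 turned to 0.077 after centring. The median of the further pathway genes was 4.88 and 0.65 with the pseudocounts 0.1 and 5, 3.21 after centring and 2.85 with 1 read set equal, and it turned to -2.43 at a minimum of 10 FPKM. No paired analysis was possible because each group had 1 library.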
